A study of Homo sapiens with 8 samples.

Results

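Guidance genes of the semaphorin, ephrin, slit and netrin systems, 67 of the 21077 genes in the table, were followed in Hs578T, an established estrogen receptor-negative breast cancer line. The cells had spent 48 hours at 25 mM glucose (high glucose, which models hyperglycemia) or at 5 mM (low glucose). The list is defined by gene symbols and holds 20 semaphorins, 9 plexins, 2 neuropilins, 5 A-type and 3 B-type ephrins, 9 EPHA and 5 EPHB receptors, 3 slits, 4 ROBO receptors, 3 netrins and 4 UNC5 receptors. Each group had 4 RNA-Seq libraries from cells grown in flasks. For hyperglycemia cultures in general, Hs578T among them, the methods of the study give media without serum and conditioning in low glucose beforehand. The RNA-Seq methods of the study do not name cultured Hs578T cells, so these details may not hold for every library here. The labels name no osmotic control for these libraries, so the effects of glucose and of osmolarity cannot be told apart. They also do not say whether the replicates were separate cultures, and the p values therefore describe the spread among these libraries, which may be technical.

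These families carry signals between neighboring cells. Semaphorins act through plexins, with neuropilins as coreceptors for most secreted class 3 semaphorins; ephrins are membrane-bound and signal through Eph receptor tyrosine kinases while also relaying signals back into their own cell; slits bind ROBO receptors; and netrins bind DCC, neogenin and the UNC5 receptors. They were described in axon pathfinding and are used again in vessel growth, in tissue boundaries and in the adhesion and migration of tumor cells.

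Each value is the deposited normalized signal, read as TMM-scaled CPM, a library-size normalized count, and libraries held an estimated 10244900 to 11956677 counts. Log2 fold changes are the high-glucose mean of log2(CPM + 1) minus the low-glucose mean, ± SE, a scale that understates the change of low genes, and adjusted p values are from limma with Benjamini-Hochberg adjustment over all tested genes. The mesenchymal markers VIM, FN1, CDH2, ZEB1 and SPARC summed to 32072 to 33287 CPM in high glucose and 53841 to 57984 CPM in low glucose, and all 5 fell. Of 6 luminal epithelial markers, EPCAM was at 0 in all 8 libraries, ESR1 did not exceed 0.270 CPM, KRT8 and KRT18 fell among 4 tested genes, and the list summed to 129 to 150 CPM in high glucose and 293 to 312 CPM in low glucose. Endothelial markers, of interest because many guidance genes act in vessels, summed to 6.31 to 7.97 CPM in high glucose and 2.06 to 3.1 CPM in low glucose, with PECAM1 and VWF higher and CDH5 at 0 in every library. The neural list summed to 115 to 140 CPM in high glucose and 164 to 185 CPM in low glucose, with 2 of 4 tested genes lower, and the immune list to 91.9 to 96.6 CPM in high glucose and 180 to 189 CPM in low glucose, with PTPRC higher, CD68 lower and LYZ at 0. VWF averaged 1.52 CPM in high glucose and 0.22 CPM in low glucose, and PTPRC averaged 0.714 CPM in high glucose and 0.0835 CPM in low glucose. Both reached the 0.5 CPM needed for testing only in high-glucose libraries, so their calls are no independent support for a rise. The part of these marker differences in the results was not tested.

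A total of 55 guidance genes had at least 0.5 CPM in at least 2 libraries, and 30 of these 55 (54.5%) changed at an FDR under 0.05, where 72.9% of all 15570 tested genes did. The calls were evenly divided, with 15 genes higher and 15 lower in high glucose, against 35.7% and 37.2% of all genes. Changes of at least 2-fold were counted, here and below, on the log2(CPM + 1) scale. On it 7 genes rose as far (SEMA7A, SLIT2, EPHA2, PLXNA4, PLXNA1, EPHA5 and SEMA4D), against 8.57% of all genes. SEMA4D met the filter only through its high-glucose libraries. A fall as large was seen for 3 genes (UNC5B, NRP2 and NTN1), against 8.48% of all genes. This scale left out 2 low genes that were called. By mean CPM, EPHA3 in high glucose was at 0.275 of low glucose (log2 fold change -0.98), and EPHA1 was 2.13 times as high (0.38). With a pseudocount of 0.1 CPM, 4 genes fell by 2-fold or more. The libraries of the 2 groups did not overlap for 28 of the 55 genes, 12 of them higher and 16 lower, while 66.7% of all genes were without overlap. The median log2 fold change was 0.01 over the guidance genes and the median size of change was 0.32, compared with 0.48 over all genes. When each library was rescaled to the same total, which moved the median of all genes upward by 0.196, the guidance genes divided into 23 higher and 10 lower. Ligands and receptors were both mixed: 8 of 28 tested ligands rose and 6 fell, and 7 of 27 tested receptors rose and 9 fell. The family counts below stand against the same shares of all genes, 35.7% called higher and 37.2% called lower.

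**Figure D1:**
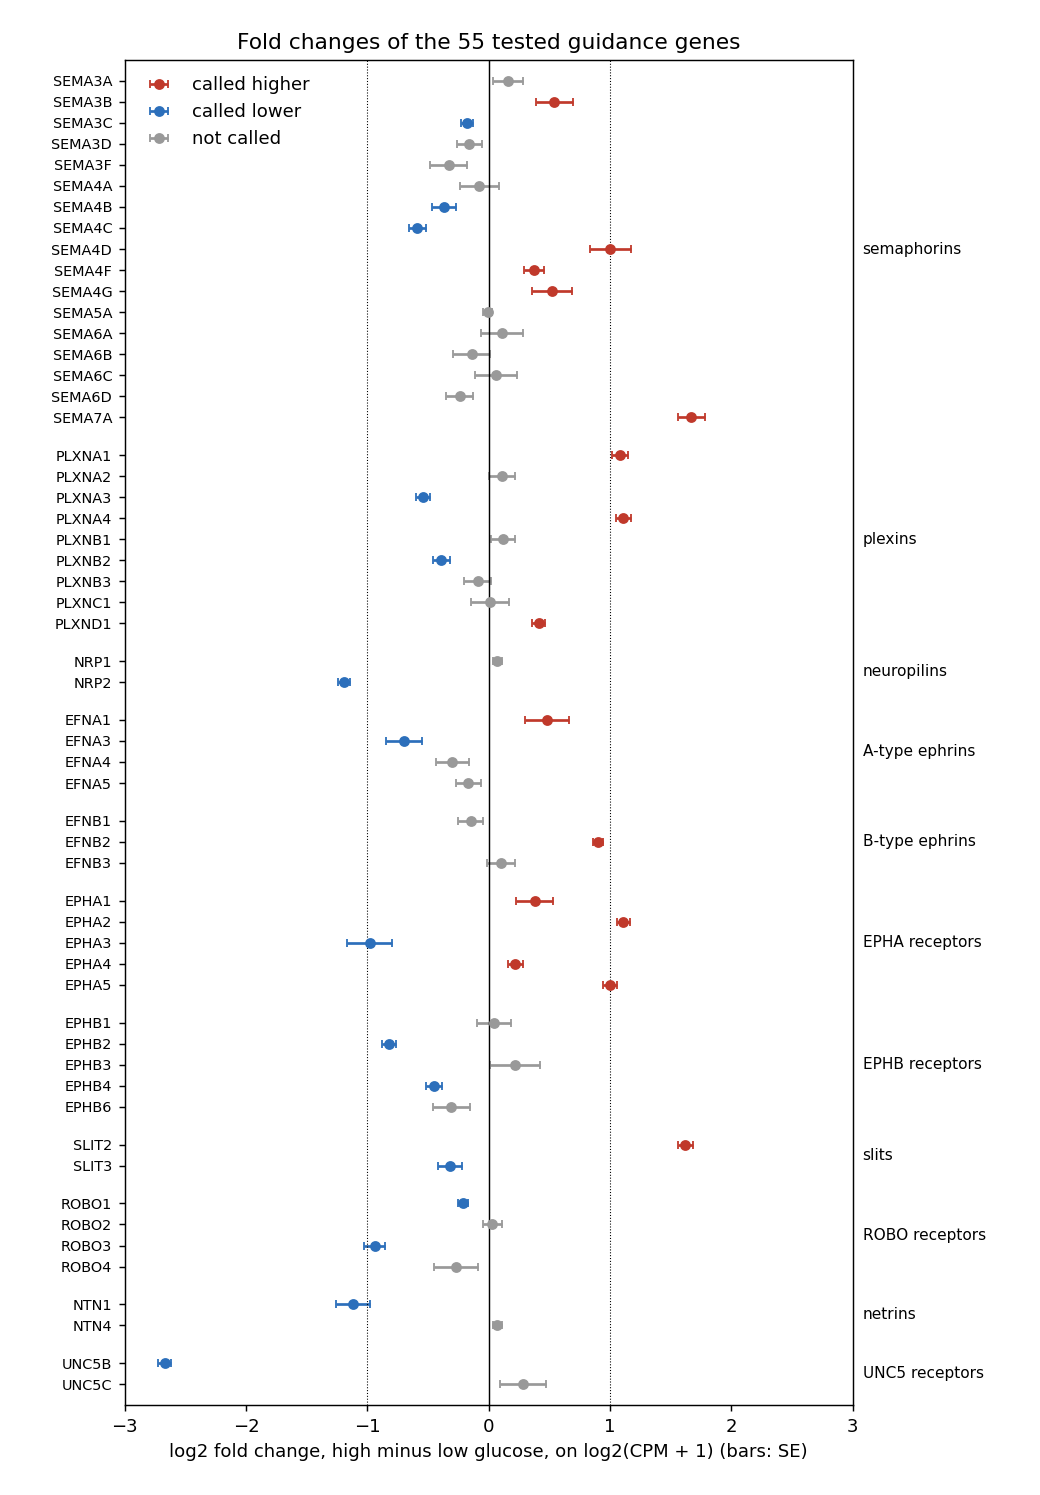
Log2 fold changes (on log2(CPM + 1), high glucose minus low glucose) of the 55 tested guidance genes, grouped by family, with SE bars; red points rose, blue points fell and gray points did not pass the test, and dotted lines mark a log2 change of 1 in either direction. UNC5B at -2.67 lies farthest to the left and SEMA7A at 1.67 farthest to the right.

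Among the semaphorins, 17 of 20 genes were tested, 5 rose and 3 fell. SEMA7A, a membrane-anchored semaphorin that binds plexin C1 and beta-1 integrins, had 35.8, 30.6, 28.6 and 29.0 CPM in high glucose, against 11.4, 9.33, 7.91 and 7.90 CPM in low glucose. Every high-glucose library stood above every low-glucose library, with a log2 fold change of 1.67 ± 0.113 and an adjusted p of 2.22e-09. Its receptor gene PLXNC1 did not pass the test (0.425 ± 0.144 CPM in high glucose and 0.417 ± 0.216 CPM in low glucose, SD, n = 4). The promoter of SEMA7A, the semaphorin with the largest rise on the log2(CPM + 1) scale, is shown as 250 bases before and 50 bases after the RefSeq start site (GRCh38.p14, chr15:74433909-74434208, minus strand), read in the direction of the gene; capitals in this and the other promoters would mark a match to one of 6 searched transcription factor motifs, and SEMA7A had none.
SEMA7A: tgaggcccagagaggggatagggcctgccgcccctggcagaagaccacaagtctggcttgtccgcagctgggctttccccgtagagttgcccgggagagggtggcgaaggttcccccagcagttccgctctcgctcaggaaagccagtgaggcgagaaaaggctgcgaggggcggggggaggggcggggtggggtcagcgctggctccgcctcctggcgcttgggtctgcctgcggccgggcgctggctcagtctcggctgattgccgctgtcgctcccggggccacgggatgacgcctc

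SEMA4D, the ligand of plexin B1, was the other semaphorin with a 2-fold rise, but on few reads. It had 1.65, 1.10, 0.668 and 1.35 CPM in high glucose, against 0, 0.225, 0.108 and 0 CPM in low glucose, or about 52 counts in all against 3. The groups did not overlap, and the ratio of 14.3 had an exact 95% interval of 4.64 to 71.8 for counting error alone (log2 fold change 1.0 ± 0.168, adjusted p = 6.60e-05). SEMA4D reached 0.5 CPM in all 4 high-glucose libraries and in 0 low-glucose libraries, so it was tested only because of the group in which it is high, and its call is no independent support for a rise. SECISBP2, which overlaps SEMA4D, was at 21.4 CPM in high glucose and 19.5 CPM in low glucose, and the strand setting of the counting is not given in the sources used here.

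SEMA3B, SEMA4F and SEMA4G rose by less. SEMA3B, a secreted semaphorin described as a tumor suppressor on chromosome 3, averaged 4.06 ± 0.549 CPM in high glucose and 2.51 ± 0.608 CPM in low glucose, and low-glucose replicate 4 (3.42 CPM) reached into the high-glucose range. SEMA4F averaged 39.2 ± 4.44 CPM in high glucose and 30.0 ± 2.38 CPM in low glucose, also with overlapping libraries. SEMA4G averaged 3.93 ± 0.365 CPM in high glucose and 2.50 ± 0.736 CPM in low glucose, without overlap. Their log2 fold changes were 0.54, 0.37 and 0.52 (adjusted p = 0.00482, 0.000874 and 0.00984 in limma). MRPL43, which overlaps SEMA4G, went the other way, at 21.3 CPM in high glucose and 37.7 CPM in low glucose, and under quantile normalization SEMA4G no longer passed (adjusted p = 0.066).

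The semaphorins that fell were SEMA4C, SEMA4B and SEMA3C. SEMA4C, a transmembrane ligand of plexin B2, had 23.1, 21.7, 20.7 and 19.7 CPM in high glucose, against 30.7, 34.0, 32.3 and 33.0 CPM in low glucose. The groups were apart, with a log2 fold change of -0.59 ± 0.0696 (adjusted p = 1.63e-06). SEMA3C, a secreted semaphorin that signals through neuropilins and plexin D1, had 132, 127, 134 and 137 CPM in high glucose, against 154, 134, 153 and 160 CPM in low glucose. Low-glucose replicate 2 fell within the high-glucose range, and the small log2 fold change of -0.18 ± 0.0516 (adjusted p = 0.00618) turned to 0.07 when libraries were rescaled to the same total and was not called under quantile normalization (-0.08, adjusted p = 0.161). SEMA4B averaged 14.4 ± 1.65 CPM in high glucose and 18.9 ± 1.69 CPM in low glucose (log2 fold change -0.37, adjusted p = 0.00291), and was not called under the same total (adjusted p = 0.198).

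SEMA5A, a transmembrane semaphorin that binds plexin B3, did not pass the test. It had 240.0, 230, 234 and 241 CPM in high glucose, against 241, 228, 233 and 246 CPM in low glucose, fully overlapping, with a log2 fold change of -0.01 ± 0.0364. It was called higher when libraries were rescaled to the same total (0.24) and under quantile normalization (0.12), so its direction depended on the scaling. SEMA3A, the founding secreted semaphorin, had 12.3, 11.4, 11.3 and 11.9 CPM in high glucose, against 9.96, 8.10, 11.1 and 13.1 CPM in low glucose (log2 fold change 0.16, adjusted p = 0.26), and was called higher when libraries were rescaled to the same total (0.38, adjusted p = 0.0104). SEMA3F, a neuropilin-2 ligand, had 3.55, 5.61, 3.25 and 3.24 CPM in high glucose, against 5.31, 5.28, 4.55 and 5.07 CPM in low glucose. Only high-glucose replicate 2 reached the low-glucose range, and without it SEMA3F was called lower (-0.48, adjusted p = 0.00555), compared with -0.33 and an adjusted p of 0.0674 over all libraries. Quantile normalization also called SEMA3F lower (-0.45, adjusted p = 0.0147). The other tested semaphorins, SEMA3D, SEMA4A, SEMA6A, SEMA6B, SEMA6C and SEMA6D, had log2 fold changes of -0.24 to 0.11 without passing the test. SEMA6D was called lower without low-glucose replicate 3 (-0.30, adjusted p = 0.0318) and with a variance prior without trend (adjusted p = 0.03).

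All 9 plexins, the semaphorin receptors, were tested, and 3 rose and 2 fell. PLXNA1, a partner of neuropilins in class 3 semaphorin signaling, had 372, 398, 357 and 302 CPM in high glucose, against 160, 181, 171 and 163 CPM in low glucose. PLXNA4, of the same class, had 58.8, 56.3, 64.4 and 56.3 CPM in high glucose, against 25.7, 26.3, 26.3 and 28.4 CPM in low glucose. Both were higher in every high-glucose library, with log2 fold changes of 1.08 ± 0.0672 and 1.11 ± 0.0613 (adjusted p = 8.73e-10 and 1.98e-10). PLXND1, a receptor of SEMA3E and SEMA3C studied in vessel patterning, had 117, 117, 113 and 100.6 CPM in high glucose, against 87.0, 85.0, 78.6 and 84.4 CPM in low glucose, a separated rise of 0.41 ± 0.0534 on the log2 scale (adjusted p = 4.50e-06).

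PLXNA3 and PLXNB2 went down. PLXNA3, another class A plexin, averaged 79.2 ± 5.98 CPM in high glucose and 115 ± 6.79 CPM in low glucose (log2 fold change -0.54, adjusted p = 6.09e-07), and the overlapping gene LAGE3 was also lower (11.7 CPM in high glucose and 22.9 CPM in low glucose). PLXNB2, the SEMA4C receptor, had 92.6, 101.3, 89.0 and 79.4 CPM in high glucose, against 112, 136, 115 and 112 CPM in low glucose, with a log2 fold change of -0.39 ± 0.0725 (adjusted p = 0.000179). The groups were apart, but the fall was -0.15 and not called when libraries were rescaled to the same total (adjusted p = 0.0789). PLXNB3 had 17.1, 20.4, 19.4 and 14.2 CPM in high glucose, against 17.1, 21.5, 17.1 and 19.8 CPM in low glucose, with overlap and no call (-0.09, adjusted p = 0.485). PLXNA2 and PLXNB1 averaged 20.7 and 20.9 CPM in high glucose, against 18.9 and 19.2 CPM in low glucose, and neither was called. Both were called higher when libraries were rescaled to the same total (0.35, adjusted p = 0.00767 and 0.00425), and PLXNA2 also without high-glucose replicate 2 (0.22, adjusted p = 0.044).

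The neuropilins, coreceptors that also bind vascular endothelial growth factors, differed from each other. NRP2 had 35.0, 35.4, 34.6 and 36.4 CPM in high glucose, against 79.8, 84.4, 84.3 and 78.2 CPM in low glucose. No library came near the other group, and the log2 fold change was -1.19 ± 0.0494 (adjusted p = 8.04e-12). NRP1 had 387, 390.0, 392.2 and 398 CPM in high glucose, against 388, 350.0, 369 and 386 CPM in low glucose. The NRP1 libraries overlapped and it was not called (0.07 ± 0.0374, adjusted p = 0.103), while it was called higher under each of the 3 other scalings (0.11 to 0.31). The NRP2 promoter is shown as that of one of the receptor genes that fell (GRCh38.p14, chr2:205682251-205682550, plus strand), and held none of the searched motifs.
NRP2: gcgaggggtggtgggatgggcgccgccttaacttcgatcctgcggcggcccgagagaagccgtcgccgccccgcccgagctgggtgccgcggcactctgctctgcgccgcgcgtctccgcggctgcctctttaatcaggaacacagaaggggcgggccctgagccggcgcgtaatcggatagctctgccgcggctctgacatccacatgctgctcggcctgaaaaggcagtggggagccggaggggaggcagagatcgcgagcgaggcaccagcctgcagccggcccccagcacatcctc

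**Figure D2:**
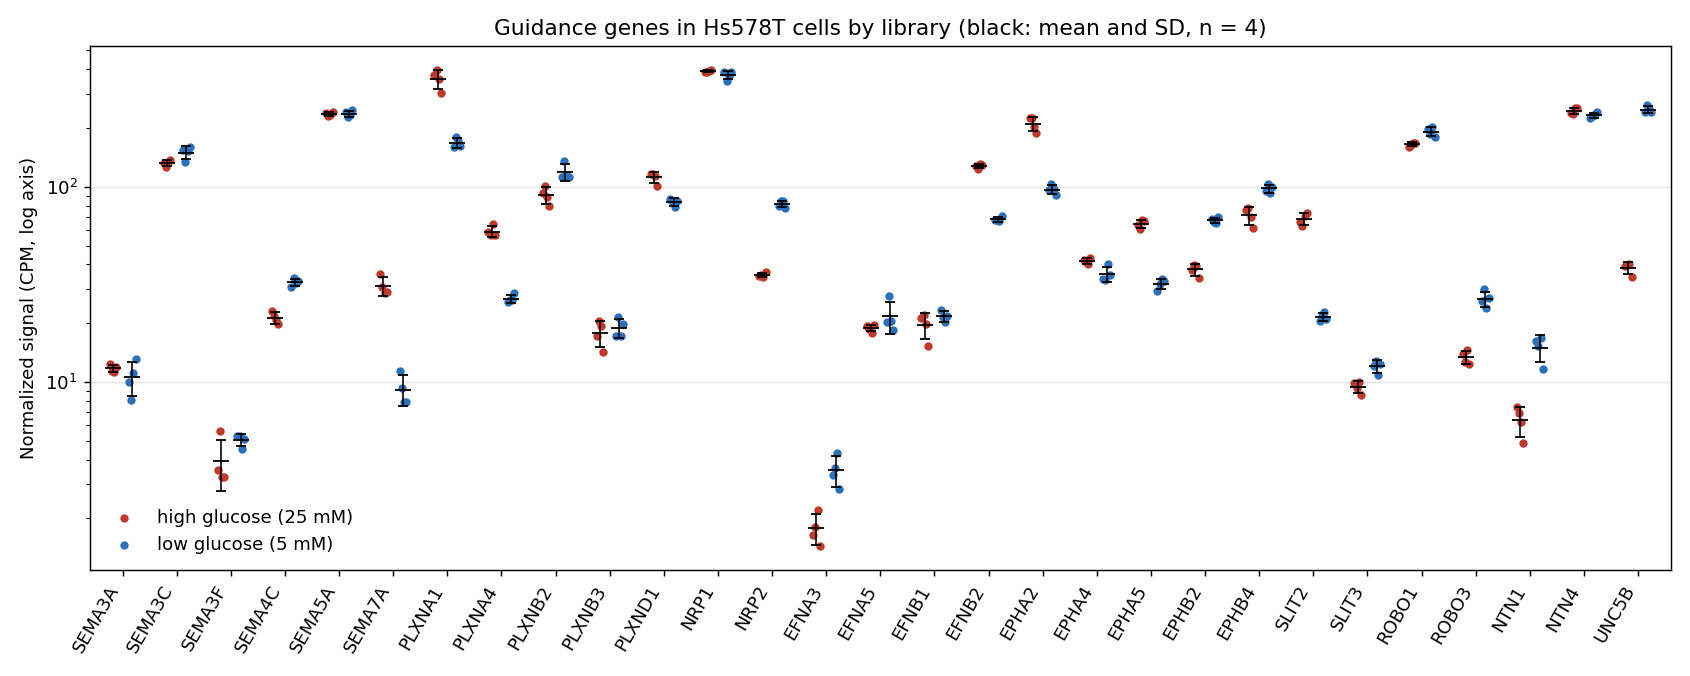
Normalized signal (CPM, log axis) of 29 guidance genes in each library, with high glucose (25 mM, red) left of low glucose (5 mM, blue) for each gene; black marks give mean and SD of 4 libraries. UNC5B sits at 34.3 to 40.4 CPM in high glucose and at 241 to 264 CPM in low glucose, while NRP1, SEMA5A and NTN4 overlap.

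In the ephrin system, 4 A-type ephrins, which are anchored by a lipid tail, were tested, and 1 rose and 1 fell. EFNA3 had 1.65, 1.80, 2.20 and 1.44 CPM in high glucose, against 3.32, 3.60, 4.33 and 2.83 CPM in low glucose. It was lower in every high-glucose library (-0.70 ± 0.149, adjusted p = 0.000557). EFNA5 had 19.4, 18.7, 17.9 and 19.6 CPM in high glucose, against 20.3, 27.7, 20.4 and 18.5 CPM in low glucose, overlapped and was not called (-0.17, adjusted p = 0.148). EFNA1, a ligand of EPHA2, averaged 1.91 ± 0.468 CPM in high glucose and 1.10 ± 0.439 CPM in low glucose with overlapping libraries (0.48 ± 0.18, adjusted p = 0.0247). The EFNA1 call was lost without high-glucose replicate 1 or 3 or low-glucose replicate 1 or 3 (adjusted p = 0.0774, 0.0656, 0.0909 and 0.0528), and under quantile normalization (0.158).

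EFNA4, EFNA3 and EFNA1 lie side by side on chromosome 1, between 155063740 and 155134899 (GRCh38), and differed in direction within this stretch. EFNA4 averaged 5.14 ± 1.01 CPM in high glucose and 6.48 ± 0.336 CPM in low glucose, without overlap but with an adjusted p of 0.0575 (-0.30 ± 0.135). It was called lower without high-glucose replicate 1 or 2 (adjusted p = 0.0387 and 0.0325) and under quantile normalization (adjusted p = 0.0181). The same call came with a pseudocount of 5 CPM (0.046), a filter of 1 CPM in 4 libraries (0.0497) and a variance prior without trend (0.0429).

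Of the B-type ephrins, which span the membrane, only EFNB2 changed by the test, although EFNB3 was also called higher when libraries were rescaled to the same total (0.32, adjusted p = 0.0204). EFNB2, the ligand of EPHB4 and a marker of arterial endothelium in vessels, had 128, 124, 131 and 129 CPM in high glucose, against 67.9, 67.3, 66.5 and 70.5 CPM in low glucose. The libraries within each group were close and the groups far apart (0.90 ± 0.0413, adjusted p = 2.35e-11). EFNB1 had 21.3, 21.9, 19.9 and 15.2 CPM in high glucose, against 23.5, 21.5, 20.2 and 21.7 CPM in low glucose, with overlap (-0.15, adjusted p = 0.199). EFNB3 averaged 8.91 ± 0.52 CPM in high glucose and 8.28 ± 1.25 CPM in low glucose and also overlapped.

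All 5 tested EPHA receptors passed the test, 4 higher and 1 lower, where 72.9% of all tested genes were called. EPHA1, however, met the filter only through its high-glucose libraries and lost its call under quantile normalization (0.18, adjusted p = 0.295). EPHA2, a receptor tyrosine kinase often abundant in aggressive breast tumors, had 224, 227, 202 and 190 CPM in high glucose, against 96.0, 103, 97.1 and 90.7 CPM in low glucose. EPHA5 had 63.8, 61.1, 67.8 and 66.5 CPM in high glucose, against 29.1, 31.9, 33.6 and 32.9 CPM in low glucose. Both were higher in each high-glucose library, with log2 fold changes of 1.11 ± 0.0574 for EPHA2 (adjusted p = 9.17e-11) and 1.0 ± 0.0593 for EPHA5 (adjusted p = 4.59e-10). EPHA4, which binds both ephrin types, had 42.2, 41.4, 40.0 and 43.0 CPM in high glucose, against 33.6, 33.2, 40.0 and 35.5 CPM in low glucose. High-glucose replicate 3 and low-glucose replicate 3 were nearly equal, and the rise was small (0.22 ± 0.0652, adjusted p = 0.006). The EPHA2 promoter (GRCh38.p14, chr1:16156020-16156319, minus strand) is shown as one of the promoters that held 2 of the motifs, both in capitals. They are a TEAD motif on the opposite strand 73 bases before the start and the cyclic AMP response element 51 bases before it.
EPHA2: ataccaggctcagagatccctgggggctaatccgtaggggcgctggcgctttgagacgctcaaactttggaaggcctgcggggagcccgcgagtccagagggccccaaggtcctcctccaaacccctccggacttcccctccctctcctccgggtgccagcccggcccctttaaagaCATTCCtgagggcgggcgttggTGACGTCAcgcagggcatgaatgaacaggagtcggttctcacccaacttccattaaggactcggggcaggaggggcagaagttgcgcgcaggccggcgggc

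EPHA3 and EPHA1 were measured on few reads. EPHA3 had 0.260, 1.10, 0.191 and 0.630 CPM in high glucose, against 2.32, 1.57, 2.17 and 1.89 CPM in low glucose, and no library overlapped (-0.98 ± 0.186, adjusted p = 0.000203). Its mean CPM in high glucose was 0.275 of that in low glucose. EPHA1 had 0.693, 1.10, 0.573 and 0.720 CPM in high glucose, against 0.553, 0.337, 0.325 and 0.236 CPM in low glucose (0.38 ± 0.153, adjusted p = 0.0377). Only 1 low-glucose library reached 0.5 CPM, against 4 high-glucose libraries, so that EPHA1 was tested because of the group in which it is high. Its antisense gene EPHA1-AS1 stood at 4.38 CPM in high glucose and 0.681 CPM in low glucose, and reads of the pair cannot be told apart if the counting did not use strand. The EPHA1 call was lost with a pseudocount of 5 CPM (adjusted p = 0.0501), without high-glucose replicate 1, 2 or 4 (adjusted p = 0.0516, 0.117 and 0.0575), and without low-glucose replicate 2, 3 or 4 (adjusted p = 0.0673, 0.0699 and 0.0912).

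The EPHB receptors, which bind B-type ephrins, had 2 falls and no rise among 5 tested genes, and both falls were called under every scaling. EPHB2 had 37.4, 39.9, 39.5 and 34.1 CPM in high glucose, against 68.5, 66.0, 65.0 and 69.7 CPM in low glucose (-0.82 ± 0.058, adjusted p = 3.84e-09). EPHB4, the receptor of EFNB2, had 76.4, 78.3, 70.2 and 61.4 CPM in high glucose, against 95.2, 104, 93.2 and 100.2 CPM in low glucose (-0.45 ± 0.0669, adjusted p = 1.76e-05). Neither gene had overlapping groups, and SLC12A9, which overlaps EPHB4, was also lower (28.1 CPM in high glucose and 37.1 CPM in low glucose). EPHB1, EPHB3 and the kinase-dead EPHB6 averaged 3.81, 3.16 and 1.96 CPM in high glucose, against 3.63, 2.57 and 2.66 CPM in low glucose, and none was called. Without high-glucose replicate 2, EPHB6 was called lower (-0.39, adjusted p = 0.0396). It was also called lower under quantile normalization (-0.50, adjusted p = 0.00696) and with a variance prior without trend (adjusted p = 0.0465).

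Both tested slits, the secreted ROBO ligands, changed in opposite directions. SLIT2 had 66.1, 63.3, 71.1 and 73.7 CPM in high glucose, against 20.6, 21.7, 22.9 and 21.1 CPM in low glucose. The lowest high-glucose library was far above the highest low-glucose library, and the log2 fold change was 1.62 ± 0.063 (adjusted p = 3.63e-12). SLIT3 had 9.88, 9.32, 9.93 and 8.56 CPM in high glucose, against 12.1, 12.8, 10.8 and 12.4 CPM in low glucose. Its groups were also apart (-0.32 ± 0.098, adjusted p = 0.00816), but it was not called when libraries were rescaled to the same total (-0.10, adjusted p = 0.374). The SLIT2 promoter is shown as that of the ligand with the smallest adjusted p (GRCh38.p14, chr4:20251655-20251954, plus strand); its capitals mark an RBPJ motif, the site of the Notch pathway factor, from base 17 after the start.
SLIT2: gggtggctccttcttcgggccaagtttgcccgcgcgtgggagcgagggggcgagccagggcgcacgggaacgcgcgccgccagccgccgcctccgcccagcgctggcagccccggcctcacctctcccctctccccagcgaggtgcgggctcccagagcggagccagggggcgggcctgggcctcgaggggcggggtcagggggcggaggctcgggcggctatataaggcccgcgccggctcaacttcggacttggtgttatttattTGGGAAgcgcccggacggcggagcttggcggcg

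No ROBO receptor rose by the test, and ROBO3 and ROBO1 fell, although ROBO1 turned to 0.03 and ROBO2 was called higher (0.26, adjusted p = 0.00846) when libraries were rescaled to the same total. ROBO3, known from the crossing of the midline by commissural axons, had 13.9, 12.7, 14.6 and 12.3 CPM in high glucose, against 25.9, 29.8, 23.8 and 26.8 CPM in low glucose (-0.94 ± 0.0874, adjusted p = 1.01e-07). ROBO1, the receptor through which SLIT2 is best known to act, had 160, 165, 167 and 169 CPM in high glucose, against 197, 187, 202 and 180 CPM in low glucose (-0.21 ± 0.0423, adjusted p = 0.000334). The libraries of both genes were without overlap. ROBO2 averaged 31.3 ± 1.13 CPM in high glucose and 30.8 ± 3.84 CPM in low glucose, and ROBO4, an endothelial receptor next to ROBO3 on chromosome 11, averaged 1.34 ± 0.238 CPM in high glucose and 1.87 ± 0.71 CPM in low glucose. Without low-glucose replicate 1, ROBO4 was called lower (-0.41, adjusted p = 0.0473), as it was under quantile normalization (-0.47, adjusted p = 0.0288).

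The netrin system held UNC5B, which had the largest log2 fold change of the 55 genes on the log2(CPM + 1) scale; with a pseudocount of 0.1 CPM the low gene SEMA4D had a larger one (2.94, against -2.69 for UNC5B). This netrin receptor, which can signal cell death when no ligand is bound (chromosome 10, 71212570 to 71302864, GRCh38), had 39.1, 39.8, 40.4 and 34.3 CPM in high glucose, against 241, 264, 249.9 and 241 CPM in low glucose. Its level in high glucose was 0.154 of that in low glucose, far beyond the spread of the libraries (-2.67 ± 0.054, adjusted p = 3.73e-15). On the log2(CPM + 1) scale, UNC5B was the only fall of 2-fold or more left when libraries were rescaled to the same total. NTN1, the secreted netrin-1, had 7.45, 6.91, 6.20 and 4.86 CPM in high glucose, against 16.3, 15.2, 16.8 and 11.7 CPM in low glucose. Its groups were apart (-1.12 ± 0.137, adjusted p = 2.30e-06). NTN4, a basement membrane netrin, had 239, 237, 253 and 253 CPM in high glucose, against 227, 230, 235 and 242 CPM in low glucose. NTN4 overlapped and was not called (0.07 ± 0.0378, adjusted p = 0.104), while each of the 3 other scalings called it higher (0.11 to 0.31). UNC5C averaged 0.494 ± 0.287 CPM in high glucose and 0.229 ± 0.256 CPM in low glucose, on at most 8 counts in a library, and was not called. It reached 0.5 CPM in 3 high-glucose libraries and 1 low-glucose library, so it was tested only because of the high-glucose group.

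The other 12 genes were too low to test and did not exceed 0.590 CPM, or 5 counts, in any library: EFNA2, EPHA6, EPHA7, EPHA8, EPHA10, NTN5, SEMA3E, SEMA3G, SEMA5B, SLIT1, UNC5A and UNC5D. EPHA7, EPHA10 and UNC5A were at 0 in all 8 libraries, which at 3 counts allows up to 0.260 to 0.354 CPM per library (counting error only).

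Ratios of ligand to receptor signal within each library do not depend on the scaling factor of that library, and were compared without a test. Both genes passed the filter in 18 pairs, several of which share a gene. NTN4 to UNC5B had ratios of 6.11, 5.95, 6.26 and 7.38 in high glucose, against 0.942, 0.872, 0.941 and 1.01 in low glucose, a mean 6.83 times as high. SLIT2 to ROBO1 had ratios of 0.414, 0.385, 0.425 and 0.437 in high glucose, against 0.104, 0.116, 0.113 and 0.118 in low glucose, or 3.68 times as high. EFNB2 to EPHB4 had ratios of 1.67, 1.58, 1.87 and 2.10 in high glucose, against 0.714, 0.650, 0.714 and 0.703 in low glucose, 2.60 times as high. In these 3 pairs the ratio was higher in every high-glucose library than in any low-glucose library. For NTN4 and UNC5B only UNC5B changed by the test, so the ratio restates its fall, and whether their proteins bind was not measured. In the other pairs the ligand rose and the receptor fell under the deposited scaling.

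The ratio of NTN1 to UNC5B was 2.74 times as high in high glucose, with both genes lower, and those of SEMA3C and SEMA3F to NRP2 were 2.03 and 1.79 times as high. EFNB1 to EPHB2 was 1.61 times as high. SEMA3C, SEMA3F and EFNB1 were not called higher, so these ratios restate the falls of NRP2 and EPHB2. The ratios of SEMA3C to PLXND1, EFNA5 to EPHA4 and SEMA4C to PLXNB2 were lower in high glucose, at 0.663, 0.737 and 0.860 of the low-glucose mean. The ratios of SEMA3A to NRP1, SEMA5A to PLXNB3 and SLIT3 to ROBO1 overlapped, and the other 5 pairs had a gene below 5 CPM in both groups. The signal is not divided by gene length, so a ratio can be compared between groups but not between pairs.

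**Figure D3:**
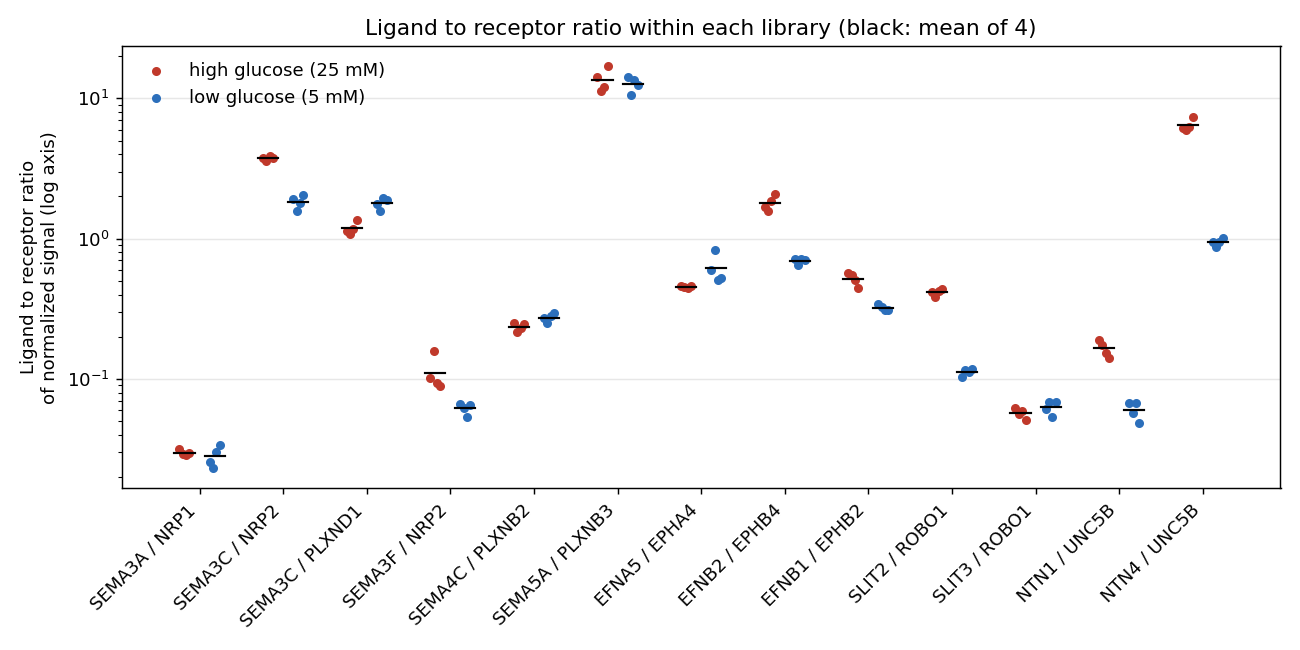
Ratio of ligand to receptor signal within each library (log axis) for 13 pairs in which both genes reached 5 CPM on average in a group; red points are high-glucose libraries, blue points low-glucose libraries, black lines the means of 4. NTN4 to UNC5B lies at 5.95 to 7.38 in high glucose and at 0.872 to 1.01 in low glucose, and SEMA3A to NRP1, SEMA5A to PLXNB3 and SLIT3 to ROBO1 overlap.

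**Figure D4:**
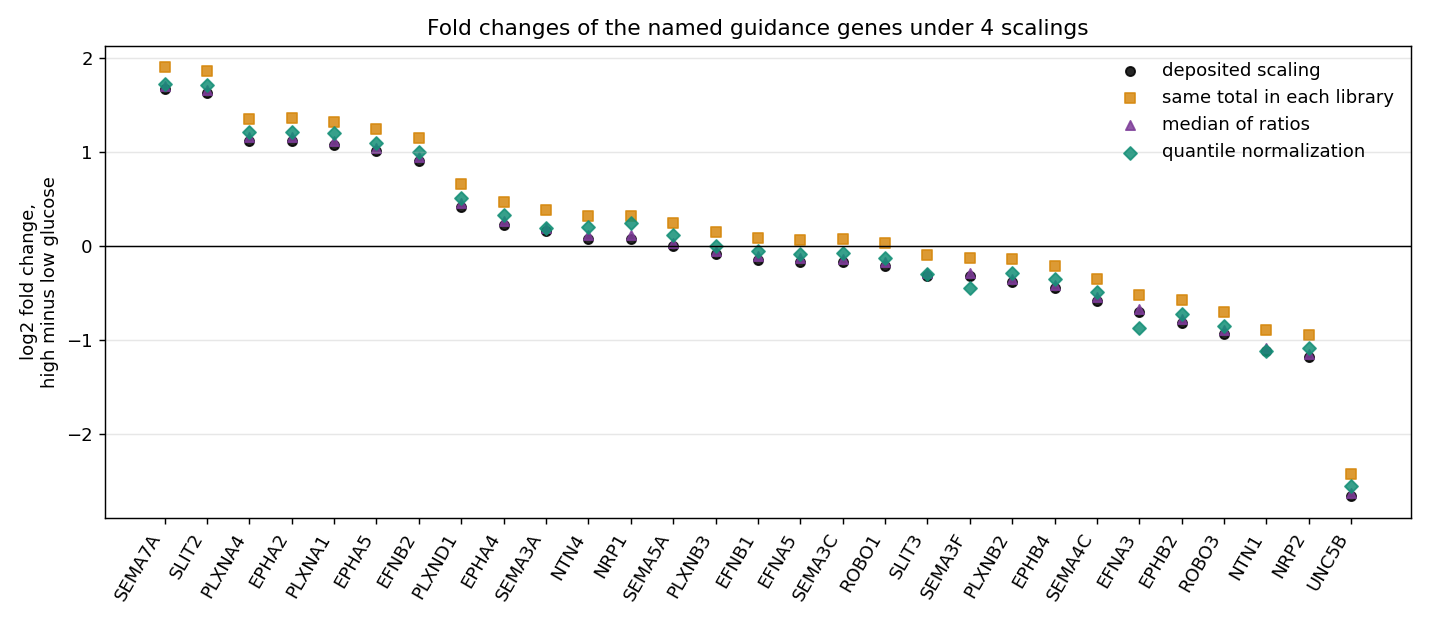
Log2 fold changes (high minus low glucose) of 29 guidance genes, under the deposited scaling (black) and 3 other scalings of the same values (colors). SEMA7A, SLIT2, EPHA2, NRP2 and UNC5B stay far from 0 under all 4 scalings, while SEMA5A moves from -0.01 to 0.24 and ROBO1 from -0.21 to 0.03 when libraries are rescaled to the same total.

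Genes that act with or below these receptors were read from 4 lists, at the background of 72.9% of all genes called, 35.7% higher and 37.2% lower. Of 22 tested genes downstream of semaphorins and plexins, 6 rose and 13 fell (median log2 fold change -0.31). RND3, a GTPase that binds plexins and counters RhoA, averaged 1157 ± 59.1 CPM in high glucose and 2619 ± 61.8 CPM in low glucose (-1.18, adjusted p = 6.55e-13). FARP1, an exchange factor linked to class A plexins, MICAL1, an actin-oxidizing enzyme, and RAP1A, a GTPase on which plexins act, had log2 fold changes of -0.75, -0.91 and -0.55. Of 23 tested genes downstream of Eph receptors and ephrins, 13 rose and 8 fell (median 0.19). ABL2, a kinase that regulates actin, averaged 279 ± 10.9 CPM in high glucose and 91.4 ± 2.08 CPM in low glucose (1.60, adjusted p = 2.88e-14). ADAM10, the protease that cleaves ephrins, and CRK, an adaptor, rose by 1.17 and 0.84, and SDCBP, the syntenin scaffold that binds B-type ephrins, fell by 0.84 on the log2 scale.

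Of 16 slit and ROBO effectors, 5 rose and 8 fell (median -0.12). PAK1, a kinase of the cytoskeleton, and SRGAP2, of the slit-ROBO GTPase-activating protein family, fell by 0.74 and 0.50 on the log2 scale, and SOS1, an exchange factor, and USP33, a deubiquitinase that binds ROBO1, rose by 0.94 and 0.63. Of 12 tested genes of the netrin, RGM and FLRT group, 8 rose and 1 fell (median 0.36). NTNG1, among those that rose, averaged 1.18 ± 0.559 CPM in high glucose and 0.281 ± 0.146 CPM in low glucose. With these values it met the filter only through its high-glucose libraries, so its call is no independent support for a rise. FLRT2, an adhesion protein that binds UNC5 receptors, averaged 136 ± 3.81 CPM in high glucose and 75.4 ± 1.01 CPM in low glucose (0.84, adjusted p = 3.43e-11). RGMB, a neogenin ligand, and FLRT3 rose by 0.66 and 1.03, and the low gene FLRT1 fell by 1.39 on the log2 scale. The netrin receptor DCC was at 0 in all libraries, and its relative NEO1 (neogenin), named after its values were seen, averaged 3.53 ± 0.374 CPM in high glucose and 1.25 ± 0.66 CPM in low glucose (1.05, adjusted p = 0.000135).

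RefSeq promoters of the same window were matched for 58 of the 67 genes, and they were rich in G and C: their median GC content was 66.2% with 21.5 CpG, against 58.3% and 14.0 over all 27305 promoters. The set of all promoters was not limited by gene type, whereas every guidance gene is protein-coding. The part of gene type in this difference and in the motif shares below was not tested. Both strands were searched for 6 motifs. TGGGAA (RBPJ) stood in 27.6% of the guidance promoters and 24.3% of all promoters, and in 5 of 15 promoters of genes that rose, 3 of 13 of genes that fell and 5 of 20 of genes without a call. CACGTG (the E-box) stood in 6.90% of the guidance promoters and 7.43% of all promoters. GGAATG (TEAD) stood in 8.62% of the guidance promoters and 14.0% of all, and TGANTCA (AP-1) in 1.72% of the guidance promoters and 7.76% of all. TGACGTCA (the cyclic AMP response element) stood in 3.45% of the guidance promoters, those of EPHA2 and SEMA4C, and in 1.98% of all. TGATGNAA (the ATF4-CHOP composite) stood in the promoter of SEMA3C alone, or 1.72%, against 3.67% of all. A match is a description of letters and not a bound site.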

How the data were processed

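RNA-Seq was done on 4 high-glucose (25 mM) and 4 low-glucose (5 mM) libraries of Hs578T cells after 48 hours. The authors deposited 1 table of normalized signal for 21077 genes and 8 columns, with 0 columns of other samples. Per the submitters' processing notes, hg38 and edgeR were used, and the aligner, the counter and its strand setting were not given in the sources used here. Signal values that the authors deposited were read as TMM-scaled CPM. The column sums were 1017015 to 1036274 in high glucose and 1205567 to 1229021 in low glucose. They do not settle which scaling was used or which libraries were scaled together. TMM assumes that most genes do not change. Plain CPM had been foreseen when the tests were chosen, and the test for normalized values was used. The depth was estimated from the value of 1 count (0.0867 to 0.118 CPM).

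Genes reaching 0.5 CPM in 2 or more libraries were tested as log2(CPM + 1), with a pseudocount of 1, by limma 3.58.1 under R 4.3.3 (trended variance, no covariates), and called at a Benjamini-Hochberg FDR under 0.05. The members and lists were chosen with earlier results of these data known. Per-library values are given for called genes with a 2-fold change and at least 5 CPM in 1 group, for the called gene with the smallest p in families without one, and for genes of ligand and receptor pairs at 5 CPM; SEMA4D, EPHA1 and EPHA3 were added after their values were seen. Up to 4 called genes of each related list were named by smallest p. Alternatives covered the pseudocount (0.1 and 5 CPM), the filter (none, or 1 CPM in 4 libraries), 3 other scalings, the variance prior, a replicate block and leaving out each library. Positions and promoters are from RefSeq (GRCh38.p14), matched by symbol.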

Additional observations from a re-analysis of the deposited data

Results flagged for a closer look

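In 6 of 110 groups of 4 libraries (55 genes in 2 groups), 1 library lay far from the other 3, where chance gives about 1 in 20. SEMA3F was at 5.61 CPM in high-glucose replicate 2, with the others at 3.24 to 3.55 CPM. EPHB3 was at 4.85 CPM in high-glucose replicate 1, with the others at 2.52 to 2.67 CPM. SEMA3B was at 3.42 CPM in low-glucose replicate 4, with the others at 2.14 to 2.28 CPM, and SEMA6C in the same library was at 2.12 CPM, with the others at 1.08 to 1.12 CPM. SEMA4B was at 21.5 CPM in low-glucose replicate 2, with the others at 18.0 to 18.3 CPM, and PLXNB2 in the same library was at 135.9 CPM, with the others at 112 to 115 CPM.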

How the results depend on the processing

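Between 29 and 33 guidance genes were called under every alternative run, 25 of the 55 genes kept their direction and their side of the threshold throughout (22 of them called), 21 changed their call and 13 changed direction under at least 1 alternative. Leaving out 1 library gave 29 to 33 calls, 13 to 15 higher and 15 to 18 lower, 5 to 7 with a 2-fold rise and 3 to 4 with a 2-fold fall, and 1 to 3 called A-type ephrins. With the replicate block, 29 genes were called and EPHA1 was lost (adjusted p = 0.0539). The deviations of same-numbered libraries had correlations of -0.0267, 0.112, 0.012 and 0.0836, and those of differently numbered libraries had -0.15 to 0.0759. Correlations this weak do not settle whether the libraries were paired. With a filter of 1 CPM in 4 libraries, 59.2% of 49 guidance genes and 78.5% of 13420 genes were called. Rescaling to the same total gave 23 genes higher, 1 with a 2-fold fall, 2 called B-type ephrins and 1 called slit, and this and both other scalings gave 2 called neuropilins and 2 called netrins. Directions turned, in log2 fold change, under the same total for SEMA3C (0.0662), EFNB1 (0.0832), SEMA5A (0.2387), SEMA3D (0.0602), ROBO1 (0.0319), EFNA5 (0.0609), SEMA4A (0.0086) and PLXNB3 (0.1434), under median-of-ratios scaling for SEMA5A (0.0333), and under quantile normalization for SEMA6A (-0.0533), SEMA5A (0.1172), PLXNC1 (-0.171), SEMA6C (-0.1361), EPHB1 (-0.1156) and PLXNB3 (0.0016). With a library left out, values ranged across 0 for SEMA5A (-0.023 to 0.0133), PLXNC1 (-0.0491 to 0.092), SEMA6C (-0.0343 to 0.1973), EPHB1 (-0.0428 to 0.1104), ROBO2 (-0.0371 to 0.0806), SEMA4A (-0.1578 to 0.0239) and PLXNB3 (-0.1558 to 0.0091), and the ratio folds of SEMA5A to PLXNB3 (0.982 to 1.13) and SEMA6A to PLXNA2 (0.904 to 2.66) ranged across 1. Of these genes, SEMA3C and ROBO1 were called with the deposited scaling. The cause was not tested. A count of 3 in a library stood for 0.260 to 0.354 CPM, which limits the genes near the filter.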

Other observations

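Several guidance genes lie in clusters, and differences between neighbors were not tested. On chromosome 3, SEMA3F (from 50155058) and SEMA3B (to 50277546, GRCh38) had log2 fold changes of -0.33 (not called) and 0.54. On chromosome 7, SEMA3C (from 80742538), SEMA3A and SEMA3D (to 85250243) had log2 fold changes of -0.18, 0.16 and -0.16, and only the first was called. ROBO3 and its neighbor ROBO4 on chromosome 11 had -0.94 and -0.27, and only ROBO3 was called under the deposited scaling. Beside SEMA3F, the antisense gene SEMA3F-AS1 was at 0.860 CPM in high glucose and 0.312 CPM in low glucose, and EPHA5-AS1 was at 0.446 CPM in high glucose and 1.02 CPM in low glucose while EPHA5 rose by 1.0 on the log2 scale.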
